A study of Mus musculus with 15 samples.

Results

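The comparison set mouse embryonic stem cells depleted of the RNA helicase Ddx10 (group Ddx10KD) directly against cells depleted of the RNA helicase Ddx54 (group Ddx54KD), 3 biological replicates in each. These are 6 of the 15 libraries of the series, chosen by their treatment labels, and the libraries of replicate 1, 2 and 3 were compared within their number. All groups were E14 cells, a widely used line of mouse embryonic stem cells, kept on 0.2% gelatin. For each group 280000 cells were mixed with 400 ng of small interfering RNA (siRNA) and 4 µL of Lipofectamine 2000, the medium was changed after 16 h, and RNA was taken at 48 h. The control group EGFPKD received siRNA against EGFP, a jellyfish protein gene, under the same protocol and was used here to place each difference against a reference level. The remaining groups, Ddx24KD and Ddx27KD, are not described here but were part of the same filtering, scaling and model fit. The study addressed what proteins found at R-loops (RNA-DNA hybrids with a displaced DNA strand) do in ribosomal RNA processing and transcription. A knockdown lowers but does not remove a transcript, and no siRNA sequence was at hand, so an effect of the target and an effect of the siRNA on other transcripts cannot be told apart.

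Ddx10 and Ddx54 are DEAD-box proteins, enzymes that use ATP to unwind or remodel RNA, and both reside mainly in the nucleolus, where ribosomes are built. The yeast relative of Ddx10 acts early in the assembly of the small ribosomal subunit, and the yeast relative of Ddx54 acts in the assembly of the large subunit. When ribosome assembly fails, free ribosomal proteins can bind Mdm2, the ligase that marks p53 for destruction, and p53 then accumulates. Embryonic stem cells are known for high rates of ribosome production and for moving between a naive state, a formative state on the way to differentiation, and a rare state that resembles the embryo at the 2-cell stage.

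The 6 libraries held 26866327 to 27708782 expected counts each, and replicates of these groups differed by more than counting noise (mean chi-square per gene 6.20 to 10.2). After group means were removed, libraries of the same number in Ddx10KD and Ddx54KD correlated at 0.256 to 0.335, and libraries of different numbers at -0.225 to -0.0859. Removing group means ties the different-number values to the same-number ones, so the negative values are not separate support for the pairing. Stem cell markers were abundant in the 6 libraries, with Pou5f1 at 1444 to 1624 TPM (a transcript level scaled for length and depth), Dppa5a at 2551 to 2820 TPM and Zfp42 at 671 to 762 TPM. Single markers picked from the lists of fibroblasts and other lineages were mostly low in the same libraries. Their highest value was 1.24 TPM (Gata4) apart from the exceptions below. Among the low ones were Col3a1 at 0 to 0.01 TPM, Dcn at 0 to 0.04 TPM, Elf5 at 0.03 to 0.11 TPM and Sox17 at 0.18 to 0.29 TPM. The exceptions among the picked markers were Thy1 at 10.3 to 16.1 TPM, Pax6 at 2.1 to 3.83 TPM and Gata6 at 0.75 to 2.96 TPM. None of these was called between the knockdowns (adjusted p = 0.123, 0.199 and 0.251). Other members of the same lists were abundant. Mean TPM in Ddx10KD and Ddx54KD was 372 and 332 for Fn1, 204 and 266 for Vim, and 225 and 162 for Peg10. A library of the Ddx24KD group, replicate 2, stood apart from its group (mean chi-square per gene 12.8 and 20.1), and without it 2236 genes were called in place of the 1517 below.

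Both knockdowns were seen in every library, and each was seen in its own group. Ddx10 (chr9:53098635-53248053, reverse strand, build mm10 as in all coordinates here) was at 144, 142 and 151 TMM-scaled CPM (a read level scaled for depth but not for length) in EGFPKD, at 33.3, 26.7 and 21.0 in Ddx10KD, and at 133, 125 and 125 in Ddx54KD. The remaining Ddx10 level in Ddx10KD was 18.5% ± 4.25 (SD, n = 3) of the control mean. Ddx54 (chr5:120612739-120628592, forward strand) was at 202, 204 and 205 CPM in EGFPKD, at 192, 185 and 185 in Ddx10KD, and at 64.3, 60.2 and 46.2 in Ddx54KD, or 28% ± 4.68 (SD, n = 3) of the control mean. The groups did not overlap for either gene. The log2 difference, given throughout as Ddx10KD minus Ddx54KD with its standard error, was -2.24 ± 0.09 for Ddx10 (adjusted p = 2.54e-11) and 1.72 ± 0.07 for Ddx54 (adjusted p = 9.51e-12). Of the other helicases targeted in the series, Ddx27 was at 209, 211 and 188 CPM in Ddx10KD and at 177, 178 and 163 in Ddx54KD, a difference of 0.23 ± 0.04 (adjusted p = 0.000509). Its Ddx10KD level matched the control closely (log2 difference 0.00), so Ddx27 was lower in Ddx54KD (-0.23 against EGFPKD). Ddx24 differed by -0.13 ± 0.06 and was not called (adjusted p = 0.183).

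Of 14335 genes tested in the edgeR quasi-likelihood fit, 1517 (10.6%) differed between the knockdowns at an adjusted p under 0.05, which is what "called" means below. Of these, 757 (5.28%) were higher in Ddx10KD and 760 (5.30%) were lower. Most differences were small. The size was under 1.2-fold for 794 of the called genes, from 1.2-fold to under 1.5-fold for 558, from 1.5-fold to under 2-fold for 125, and at least 2-fold for 40 (0.279%). Only 9 of those 40 reached a mean of 5 TPM in either group, Ddx10 and Ddx54 among them. For comparison, 6310 genes (44.0%) differed between Ddx10KD and EGFPKD and 5570 (38.9%) between Ddx54KD and EGFPKD, contrasts that share the EGFPKD libraries. The 3 Ddx10KD and 3 Ddx54KD values did not overlap for 2806 genes (19.6%).

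The count of called genes rested on the pairing by replicate number: 205 genes (1.43%) were called in a fit with no replicate block. All 205 were among the 1517, and no called gene changed its sign. With any 1 of the 6 libraries left out, 658 to 1045 genes were called. Ddx10KD replicates 2 and 3 had the most weight, with 665 and 658 genes called in their absence, and the counts without Ddx54KD replicate 1, 2 or 3 were 903, 808 and 810. The genes whose differences are given below kept their call without any 1 library unless the text says otherwise.

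**Figure D1:**
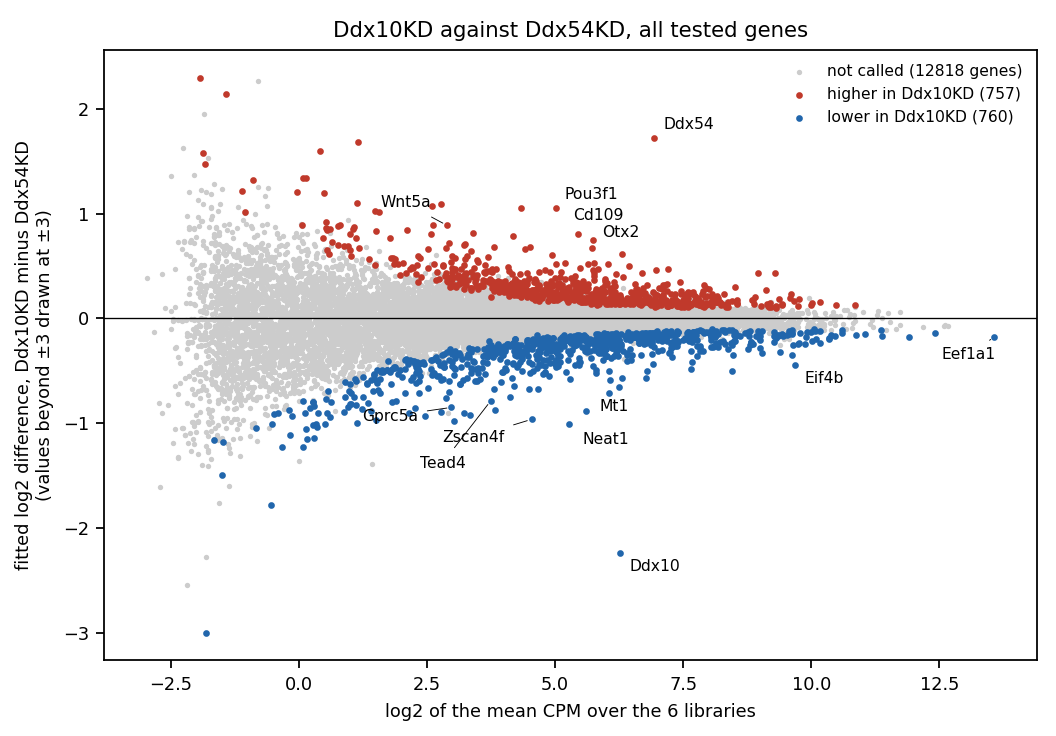
Each point is 1 of the 14335 tested genes, placed by the log2 of its mean TMM-scaled CPM over the 6 libraries (horizontal) and by its fitted log2 difference, Ddx10KD minus Ddx54KD (vertical); red marks the 757 genes called higher, blue the 760 called lower. Ddx54 at 1.72 and Ddx10 at -2.24 stand far from the other well-expressed genes, most of which lie within 1 log2 unit of 0.

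Set against the control, the called genes fell on both sides. Among the 757 genes higher in Ddx10KD, the EGFPKD mean lay below both knockdown means for 354, between them for 303 and above both for 100. Among the 760 lower genes it lay above both for 342, between them for 301 and below both for 117.

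Genes of the 2-cell-like state were lower in Ddx10KD than in Ddx54KD. This state is a rare and passing condition of cultured stem cells that switches on genes of the early embryo, among them the Zscan4 cluster, whose zinc finger proteins take part in telomere maintenance. Of 27 tested genes of the list, 13 were called lower and 0 higher, beside 5.30% called lower over all genes. Several of the called genes are copies that share sequence, as given below, so the members are not separate observations. The median log2 difference of the list was -0.75, beside -0.00 for all genes. In all 3 replicate pairs 22 of the 27 were lower, beside 3627 of all 14335 genes. The list medians against EGFPKD were -0.08 for Ddx10KD and 0.57 for Ddx54KD. The summed level of all 32 genes of the list in the data differed less. It was 334 ± 17.5 CPM (SD, n = 3) in Ddx10KD, 399 ± 17.4 in Ddx54KD and 362 ± 17.2 in EGFPKD. In bulk samples, fewer cells in such a state and less RNA per cell cannot be told apart.

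The summed level of the 5 tested Zscan4 genes was 46.7, 43.7 and 59.0 CPM in EGFPKD, 51.5, 38.5 and 33.5 in Ddx10KD, and 83.1, 68.6 and 82.6 in Ddx54KD. Every Ddx54KD library stood above every control and Ddx10KD library, while the ranges of control and Ddx10KD overlapped. Zscan4f was at 17.3, 17.7 and 23.4 CPM in EGFPKD, at 19.3, 14.0 and 13.9 in Ddx10KD, and at 32.3, 27.9 and 31.9 in Ddx54KD. Its difference was -0.96 ± 0.16 (adjusted p = 0.000843, 0.0116 with no replicate block). Zscan4a differed by -0.98, Zscan4b by -0.91, Zscan4c by -0.88 and Zscan4d by -0.86. Of these, Zscan4a is annotated as an unprocessed pseudogene and the others as protein-coding. The Zscan4b call was lost without Ddx10KD replicate 2 or 3 (adjusted p = 0.0508 and 0.0648). It was also lost with no replicate block (adjusted p = 0.0550).

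The Zscan4 genes are close copies on chromosome 7, and the copies limit what can be said of each. The share of each gene's 50-base stretches that also stands in transcripts of other genes was 49.6% for Zscan4d, 63.6% for Zscan4a, 85.5% for Zscan4c, 86.8% for Zscan4f and 90.1% for Zscan4b, so reads could be split between copies and the sum is the safer value. The stretches before the starts of 4 of the copies are shown as a description, since the copies are nearly the same there as well. Shared reads alone can make the estimates of the copies alike, so their differences say nothing of these stretches. Each is 216 bases from the RefSeq promoter table (GRCm38.p6, the assembly behind mm10), written 5′ to 3′ on the gene's strand, and capitals mark bases that differ from Zscan4f. The stretches were aligned on shared sequence, so their distances to the annotated starts differ. They end 0 bases before the start for Zscan4f and Zscan4b, 23 for Zscan4c and 34 for Zscan4d. Zscan4f is from chr7:11397699-11397914 (forward), Zscan4b from chr7:10905051-10905266 (reverse), Zscan4c from chr7:11005506-11005721 (forward) and Zscan4d from chr7:11166183-11166398 (reverse).
Zscan4f: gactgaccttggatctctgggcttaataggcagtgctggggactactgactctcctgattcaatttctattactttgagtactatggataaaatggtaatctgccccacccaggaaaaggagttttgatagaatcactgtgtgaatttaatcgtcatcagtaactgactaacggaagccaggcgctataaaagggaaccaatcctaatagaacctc
Zscan4b: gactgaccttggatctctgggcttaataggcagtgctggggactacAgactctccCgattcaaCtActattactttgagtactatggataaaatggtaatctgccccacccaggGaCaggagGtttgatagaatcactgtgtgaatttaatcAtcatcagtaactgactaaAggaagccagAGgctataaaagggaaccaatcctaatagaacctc
Zscan4c: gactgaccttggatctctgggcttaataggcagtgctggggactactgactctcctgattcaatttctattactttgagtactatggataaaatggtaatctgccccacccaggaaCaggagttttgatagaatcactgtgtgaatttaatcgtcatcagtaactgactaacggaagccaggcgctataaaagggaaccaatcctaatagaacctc
Zscan4d: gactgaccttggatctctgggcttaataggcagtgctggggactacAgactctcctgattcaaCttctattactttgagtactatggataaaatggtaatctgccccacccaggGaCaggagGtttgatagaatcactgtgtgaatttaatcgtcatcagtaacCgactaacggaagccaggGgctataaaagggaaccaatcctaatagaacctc
Zscan4c differs from Zscan4f at 1 of the 216 bases, Zscan4d at 7 and Zscan4b at 11.

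Other 2-cell-like genes had differences of like size. Gm2022, of the Eif1a-like family, was at 4.27, 3.54 and 3.53 CPM in Ddx10KD and at 7.29, 6.43 and 7.91 in Ddx54KD, with EGFPKD at 4.09, 3.88 and 3.79. Its difference was -0.93 ± 0.12 (adjusted p = 0.000102), and Ddx54KD stood above both other groups with no overlap. Gm8300 differed by -0.90 ± 0.15 (adjusted p = 0.00086). Gm4340 differed by -0.75 ± 0.12 (adjusted p = 0.000535), with 15.8, 12.1 and 10.7 CPM in Ddx10KD and 26.4, 23.0 and 15.6 in Ddx54KD, which overlap by a narrow margin. These are multicopy genes too, with 97.2% of the 50-base stretches of Gm2022 and 98.9% of those of Gm4340 shared with other genes. The number of called members of the list was 8 with no replicate block, 7 without Ddx10KD replicate 3 and 10 to 14 without any other of the 6 libraries.

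**Figure D2:**
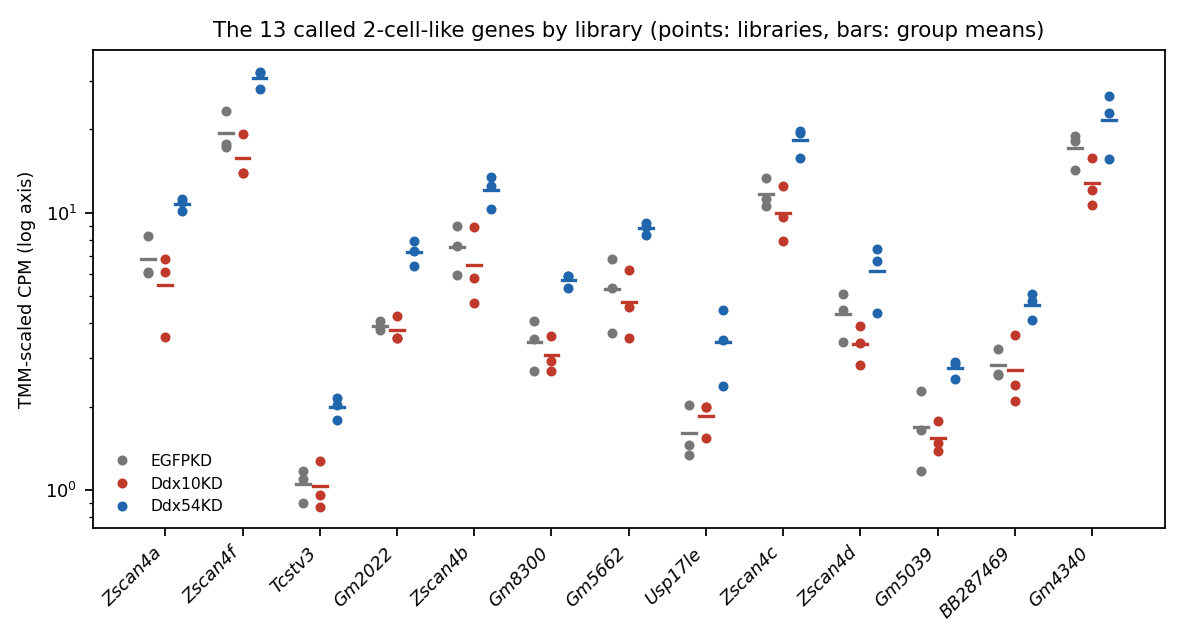
TMM-scaled CPM (log axis) of the 13 called 2-cell-like genes in each library of EGFPKD (grey), Ddx10KD (red) and Ddx54KD (blue), with bars at the group means. For Zscan4f the Ddx54KD libraries sit at 27.9 to 32.3 CPM, above the 13.9 to 23.4 CPM of the other groups.

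A share of the genes of the formative epiblast and early neural cells was higher in Ddx10KD. The formative state follows the naive state and precedes commitment, and Otx2 and Pou3f1 are its best known transcription factors. Of 24 tested genes of the list, 9 were called higher and 0 lower, beside 5.28% called higher over all genes, and 15 were not called. The list's median difference was 0.11, and 7 of the 24 values were below 0. In all 3 pairs 13 of its genes were higher, beside 3632 of all 14335 genes. Against EGFPKD the list's median was -0.02 for Ddx10KD and -0.02 for Ddx54KD. The called members were Otx2, Pou3f1, Dnmt3a, Sox11, Cdh2, Neurod1, Sall2, Grhl2 and Pim2. There were 2 called members with no replicate block and 6 to 8 with 1 library left out. Without Ddx10KD replicate 2 or 3, or without Ddx54KD replicate 1, the count was 6. Neurod1, a proneural factor, lost its call in 4 of the 6 leave-one-out fits (adjusted p of up to 0.121).

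Pou3f1 (chr4:124656807-124660655, forward strand) was at 16.1, 10.9 and 18.2 CPM in EGFPKD, at 45.8, 33.3 and 51.2 in Ddx10KD, and at 23.6, 16.9 and 22.2 in Ddx54KD. Its difference was 1.05 ± 0.08 (adjusted p = 3.07e-07, 0.0329 with no replicate block), and replicate 2 was the lowest of each group. Otx2 (chr14:48657677-48673819, reverse strand) was at 28.4, 20.1 and 25.1 CPM in EGFPKD, at 66.2, 57.5 and 77.6 in Ddx10KD, and at 45.5, 31.3 and 43.4 in Ddx54KD, a difference of 0.75 ± 0.06 (adjusted p = 7.74e-07, 0.0416 with no replicate block). For Otx2 all 3 groups stood apart, with Ddx54KD between the control and Ddx10KD. Dnmt3a, a DNA methyltransferase that sets new methylation marks, was at 175, 186 and 218 CPM in Ddx10KD and at 156, 146 and 150 in Ddx54KD, a difference of 0.35 ± 0.07 (adjusted p = 0.00481). Pim2, a kinase that favours survival, differed by 0.33 ± 0.05 (adjusted p = 0.000473). Dnmt3a and Pim2 were not called with no replicate block (adjusted p = 0.101 and 0.272).

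In the core and naive pluripotency list more genes were called lower than higher in Ddx10KD, and the core factors Pou5f1 and Sox2 were not called. The list holds genes of differing roles, so the counts below do not give a direction of the naive state. Of 33 genes of the core and naive list, 6 were called lower (Nanog, Dppa2, Esrrb, Tfcp2l1, Tbx3 and Tcf7l1) and 3 higher (Gbx2, Jarid2 and Rex2), beside 5.30% and 5.28% over all genes, with a median of -0.05. The 3 higher calls fell to 1 with no replicate block and to 1 without Ddx10KD replicate 2, Ddx54KD replicate 2 or Ddx54KD replicate 3. Nanog (chr6:122707489-122714633, forward strand), a homeobox factor of the naive state, was at 634, 646 and 632 CPM in EGFPKD, at 469, 491 and 422 in Ddx10KD, and at 557, 573 and 545 in Ddx54KD. Its difference was -0.28 ± 0.05 (adjusted p = 0.00186), and the 3 groups did not overlap. Tfcp2l1, a factor that sustains the naive state, was at 389, 437 and 398 CPM in Ddx10KD and at 463, 508 and 492 in Ddx54KD (-0.26 ± 0.04, adjusted p = 0.000479). Against EGFPKD, Tfcp2l1 differed by -0.33 in Ddx10KD and by -0.08 in Ddx54KD.

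Tbx3, a T-box factor, showed what the block does. It was at 82.8, 141 and 85.0 CPM in Ddx10KD and at 118, 178 and 117 in Ddx54KD, so the groups overlapped because replicate 2 was high in each, while Ddx10KD was lower in all 3 pairs. Its difference was -0.43 ± 0.05, with an adjusted p of 6.83e-05 with the block and 0.504 with no replicate block. Dppa2, which helps to activate genes of the early embryo, differed by -0.27 ± 0.04 (adjusted p = 0.000248). Gbx2, a homeobox gene, was at 48.5, 46.1 and 48.8 CPM in Ddx10KD and at 40.0, 36.3 and 32.0 in Ddx54KD, a difference of 0.41 ± 0.06 (adjusted p = 0.000479). None of the 6 lower members was called with no replicate block, where Nanog had an adjusted p of 0.0804, Dppa2 of 0.0586 and Tfcp2l1 of 0.124. Pou5f1 differed by 0.06 ± 0.04 (adjusted p = 0.362) and Sox2 by -0.11 ± 0.04 (adjusted p = 0.0756). The call of Esrrb was lost without Ddx10KD replicate 2 or 3, with an adjusted p of up to 0.0707.

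**Figure D3:**
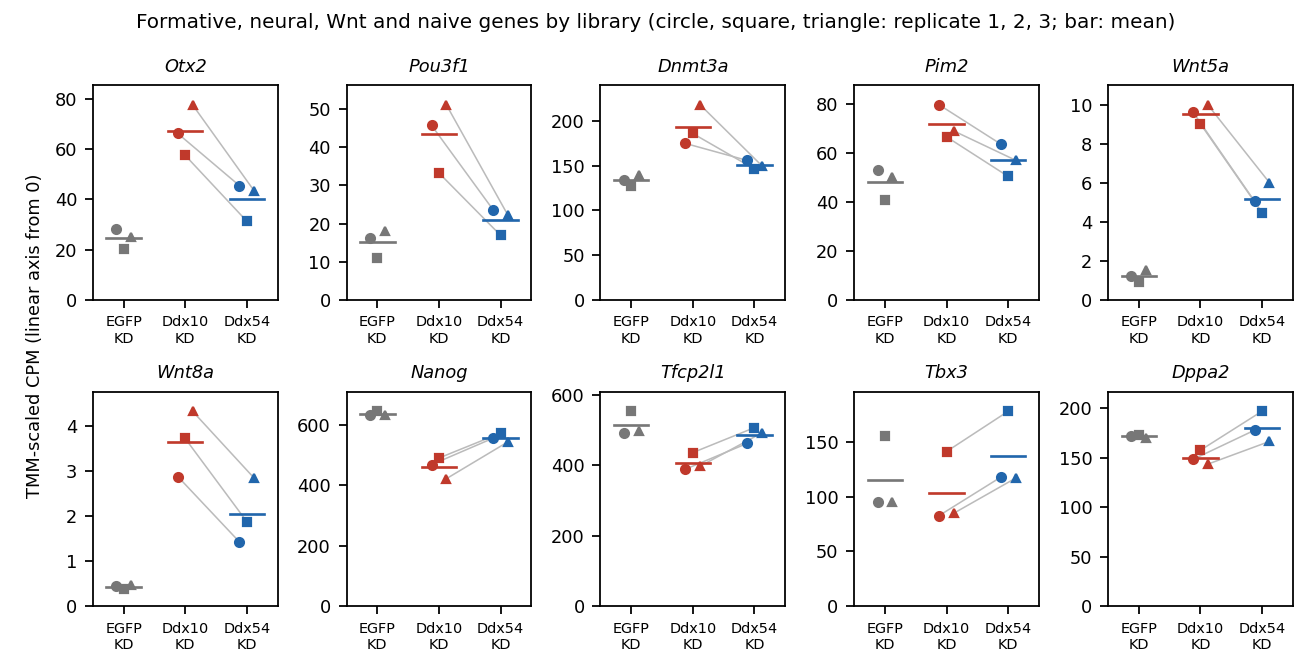
TMM-scaled CPM (linear axes from 0) of 10 genes in each library of EGFPKD, Ddx10KD and Ddx54KD; circles, squares and triangles are replicates 1, 2 and 3, bars are group means, and lines join the Ddx10KD and Ddx54KD libraries of a number. All 3 lines fall from Ddx10KD to Ddx54KD for Pou3f1 and Otx2 and rise for Nanog and Tbx3, where replicate 2 is high in every group for Tbx3.

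Single ligands of the Wnt, Bmp and Fgf families differed between the knockdowns. Wnt5a, a secreted ligand mostly linked to noncanonical Wnt signalling, was at 1.21, 0.896 and 1.51 CPM in EGFPKD, at 9.64, 9.04 and 10 in Ddx10KD, and at 5.05, 4.48 and 6.02 in Ddx54KD. Its difference was 0.89 ± 0.13 (adjusted p = 0.00021, 0.0318 with no replicate block), and the 3 groups stood apart. Wnt8a, a ligand of canonical Wnt signalling, was lower in level, at 2.88, 3.73 and 4.33 CPM in Ddx10KD and at 1.43, 1.88 and 2.84 in Ddx54KD. Its difference was 0.84 ± 0.25 (adjusted p = 0.0386), but the call held only without Ddx10KD replicate 1 and was lost without any other of the 6 libraries (adjusted p of up to 0.206), with no replicate block (0.199) and by limma-voom. Axin2, a feedback target of canonical Wnt signalling, differed in the other direction, by -0.29 ± 0.08 (adjusted p = 0.0310). It was called only with all 3 pairs or without Ddx54KD replicate 3 (adjusted p of up to 0.173 without another library). In all, 3 of 30 tested Wnt pathway genes were called higher and 3 lower, 20% beside 10.6% of all genes, and the lower calls fell to 0 without Ddx10KD replicate 2 or 3 or Ddx54KD replicate 1.

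Bmp4, a ligand that directs mesoderm and opposes neural fate, was the 1 called gene among 18 of the primitive streak and mesoderm list. That is 5.56% beside 10.6% of all genes, and Bmp4 was picked out after its values were seen. It was at 80.8, 88.4 and 82.4 CPM in EGFPKD, at 51.9, 58.4 and 51.3 in Ddx10KD, and at 73.0, 88.9 and 81.8 in Ddx54KD. The difference was -0.59 ± 0.06 (adjusted p = 1.05e-05, 0.0199 with no replicate block), and Ddx10KD stood below both other groups. Fgf4, the growth factor through which stem cells signal to themselves to leave the naive state, was at 139, 99.5 and 105 CPM in Ddx10KD and at 177, 123 and 129 in Ddx54KD. Its difference was -0.32 ± 0.06 (adjusted p = 0.00321), with overlapping groups and no call without the block (adjusted p = 0.306). Fgf15, another ligand, went the other way (0.72 ± 0.20, adjusted p = 0.0271). The Fgf15 call was lost without any library other than Ddx54KD replicate 1 (up to 0.144) and with no replicate block (0.354). Of 28 FGF and ERK feedback genes 2 were called higher and 2 lower, 14.3% beside 10.6% of all genes. In the Nodal pathway 2 of 22 genes were called higher and 1 lower, 13.6% in all beside 10.6% of all genes. Skil, an inhibitor of Smad proteins, differed by 0.28 ± 0.05 (adjusted p = 0.00145) and Pcsk6, a protease that matures Nodal, by -0.26 ± 0.05 (adjusted p = 0.00177), both without a call when the block was left out (0.329 and 0.398).

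Messages for ribosomal proteins were slightly lower in Ddx10KD than in Ddx54KD. Of 83 cytosolic ribosomal protein genes, 32 were called lower and 0 higher, beside 5.30% called lower over all genes. The median difference was -0.10, and 75 of the 83 values were below 0. The medians in the 3 replicate pairs were -0.06, -0.12 and -0.10. In all 3 pairs 60 of these genes were lower, beside 3627 of all 14335 genes. Against EGFPKD the list's median was -0.02 for Ddx10KD and 0.09 for Ddx54KD. The call was made for 9 of 33 small subunit proteins and for 23 of 50 large subunit proteins, with medians of -0.08 and -0.11, and the difference between the subunits was not tested.

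These calls depended on the pairing and on the library. The list held 4 called genes with no replicate block, 36 by DESeq2, and 19 to 29 with 1 library left out. The lowest counts were 19 without Ddx10KD replicate 2, 20 without Ddx10KD replicate 3 and 20 without Ddx54KD replicate 2. Transcript length moved with the comparison as well. In 5 equal classes of the tested genes by length, from the shortest to the longest, the median difference was -0.03, -0.01, 0.00, 0.01 and 0.02, and the share called higher was 2.30% in the shortest class and 8.03% in the longest. Whether length had a part in the ribosomal protein calls was not tested. Within the shortest class, 28 of 76 ribosomal protein genes were called lower (36.8%), beside 6.77% of the 2791 other genes. That class runs from 53 to 1519 bases and lengths were not matched within it, so these shares cannot separate length from list membership.

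Rps20, a small subunit protein, was at 803, 890 and 839 CPM in EGFPKD, at 684, 698 and 684 in Ddx10KD, and at 865, 970 and 808 in Ddx54KD. Its difference was -0.35 ± 0.05 (adjusted p = 0.000164, 0.0370 with no replicate block), and Ddx10KD stood below both other groups. Rpl17 differed by -0.24 ± 0.03, Rpl10 by -0.22 ± 0.03 and Rpl7 by -0.19 ± 0.03 (adjusted p = 0.00019, 0.00019 and 0.000581). With no replicate block Rpl10 was called (0.0329) and Rpl17 and Rpl7 were not (0.0522 and 0.107). Processed copies of ribosomal protein genes can take reads: 44.7% of the 50-base stretches of Rpl17, 33.5% of Rpl10, 21.0% of Rpl7 and 7.14% of Rps20 also stand in other annotated transcripts. Rpl22l1, a paralogue of Rpl22 picked out after its values were seen, was at 59.6, 53.3 and 52.5 CPM in EGFPKD, at 21.2, 16.5 and 18.0 in Ddx10KD, and at 29.9, 25.5 and 24.6 in Ddx54KD. Its difference of -0.52 ± 0.10 (adjusted p = 0.00186) came on top of a lower level in both knockdowns (-1.57 and -1.05 against EGFPKD).

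Translation factors were mostly called lower where they were called. Of 39 tested, 12 were called lower and 3 higher (5 and 1 with no replicate block), beside 5.30% called lower over all genes, and the median was -0.03. Eif4b, which assists the helicase that opens the front of a messenger RNA for the ribosome, lies at chr15:102073773-102097173 (forward strand). It was at 897, 907 and 873 CPM in EGFPKD, at 739, 692 and 661 in Ddx10KD, and at 959, 928 and 956 in Ddx54KD. The difference was -0.44 ± 0.04 (adjusted p = 7.74e-07, 0.000103 with no replicate block), and the lowest Ddx54KD library was above the highest control library. Only 1.12% of its 50-base stretches stand in another gene.

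Further translation factors followed. Eef1b2, a subunit of the factor that recharges the elongation factor eEF1A, was at 591, 597 and 608 CPM in Ddx10KD and at 727, 782 and 735 in Ddx54KD (-0.32 ± 0.03, adjusted p = 1.05e-05). Its exons overlap those of Ndufs1 on the other strand, and the files do not state whether strand was used in counting. Eif3f, a subunit of the initiation factor eIF3, differed by -0.27 ± 0.04 (adjusted p = 0.000186). Eef1a1, which brings charged transfer RNA to the ribosome, was at 11229, 11790 and 11289 CPM in Ddx10KD and at 12599, 13195 and 12989 in Ddx54KD, with 10723, 11139 and 11083 in EGFPKD. Its difference was -0.18 ± 0.03 (adjusted p = 0.000451), and here the higher group, Ddx54KD, was the one away from the control (0.24 against EGFPKD). With no replicate block the adjusted p was 0.00365 for Eef1b2, 0.0222 for Eif3f and 0.0406 for Eef1a1. In the other direction, Eif5, which triggers the release of eIF2 at the start codon and was picked out after its values were seen, was at 599, 644 and 587 CPM in Ddx10KD and at 523, 509 and 485 in Ddx54KD (0.27 ± 0.05, adjusted p = 0.00138).

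**Figure D4:**
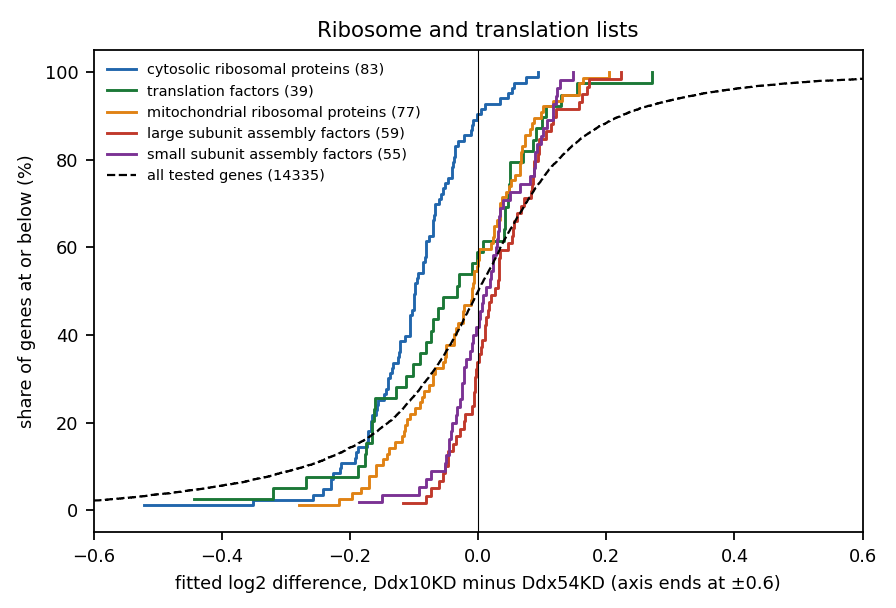
Share of genes at or below each fitted log2 difference (horizontal, Ddx10KD minus Ddx54KD, axis ending at -0.6 and 0.6) for 5 lists and for all 14335 tested genes (dashed). The curve of the 83 cytosolic ribosomal proteins lies mostly to the left of 0, with a median of -0.10, while those of the mitochondrial ribosomal proteins and the assembly factors cross 50% near 0.

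Factors that assemble ribosomes differed little, although the helicases belong to this process. Of 59 large subunit assembly factors 5 were called higher in Ddx10KD and 0 lower (8.47% called, beside 10.6% of all genes). Of 55 small subunit factors 2 were called higher and 1 lower (5.45% called). The medians were 0.03 and 0.01. The 5 large subunit calls fell to 2 or 3 without any 1 of the 6 libraries and to 0 with no replicate block. Eif6, which keeps the large subunit from joining too early, was at 150, 148 and 145 CPM in Ddx10KD and at 134, 130 and 116 in Ddx54KD, with 147, 152 and 156 in EGFPKD. Its difference was 0.22 ± 0.04 (adjusted p = 0.0033, 0.0583 with no replicate block), and Ddx54KD stood below both other groups. Noc2l, of a nucleolar complex that escorts early large subunits, differed by 0.17 ± 0.04 (adjusted p = 0.00726), a call lost without Ddx54KD replicate 3 (0.0614) or with no replicate block (0.173). The small subunit factors Wdr43, Wdr3 and Nob1 differed by 0.13, 0.12 and -0.15, and each call was lost with several libraries left out in turn (adjusted p of up to 0.145, 0.171 and 0.140). Among 21 snoRNP genes Nop56 was called higher (0.18 ± 0.03, adjusted p = 0.00219), and among 20 RNA polymerase I genes Polr1c was called lower (-0.21 ± 0.05, adjusted p = 0.00744), both picked out after their values were seen. These were the only calls in their lists, shares of 4.76% and 5% beside 10.6% of all genes. The Polr1c call was lost without replicate 2 of either group (up to 0.0784), and neither gene was called with no replicate block (0.101 and 0.0938).

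Of 34 other DEAD-box genes, 2 were called higher and 3 lower, 14.7% in all beside 10.6% of all genes. With 1 library left out 0 to 1 were called higher and 1 to 3 lower, the fewest without Ddx10KD replicate 2 or 3 or Ddx54KD replicate 2 or 3. Ddx17, a cofactor of transcription and splicing, was at 403, 378 and 397 CPM in Ddx10KD and at 504, 472 and 464 in Ddx54KD, with 373, 335 and 342 in EGFPKD (-0.29 ± 0.04, adjusted p = 0.000186, 0.0185 with no replicate block). All 3 groups stood apart, in the order control, Ddx10KD, Ddx54KD, and exons of Ddx17 overlap Kdelr3 on the other strand. Among 33 R-loop factors 2 were called higher and 3 lower, 15.2% beside the same 10.6%. Dhx9, a helicase that can unwind RNA-DNA hybrids, was at 808, 827 and 745 CPM in Ddx10KD and at 974, 940 and 890 in Ddx54KD (-0.24 ± 0.04, adjusted p = 0.00200). Top1, the topoisomerase that relieves the supercoils in which R-loops form, was at 181, 180 and 162 CPM in Ddx10KD and at 160, 147 and 139 in Ddx54KD (0.23 ± 0.04, adjusted p = 0.000876). Neither was called with no replicate block (adjusted p = 0.0550 and 0.167).

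The p53 targets stood far above the control in both knockdowns and differed little between them. The list's median over 46 genes was 1.06 for Ddx10KD and 0.98 for Ddx54KD against EGFPKD, and 0.07 between the knockdowns. Between the knockdowns 2 genes were called higher and 0 lower, 4.35% beside 10.6% of all genes. Cdkn1a, the cell cycle inhibitor, was at 78.9, 82.7 and 91.1 CPM in Ddx10KD and at 72.0, 73.8 and 79.9 in Ddx54KD, with 33.3, 30.4 and 30.3 in EGFPKD, a difference of 0.16 ± 0.13 (adjusted p = 0.467) with overlapping groups. Mdm2, at 301, 359 and 389 CPM in Ddx10KD and 294, 335 and 389 in Ddx54KD, differed by 0.05 ± 0.12 (adjusted p = 0.855). Trp53, which encodes p53, differed by 0.06 ± 0.04 (adjusted p = 0.412). Cdkn1a was higher in Ddx10KD in all 3 pairs. A p above the threshold does not show that the knockdowns act alike on these genes. Pmaip1, which encodes the cell death protein Noxa, was at 36.1, 43.6 and 39.6 CPM in Ddx10KD and at 29.1, 30.4 and 27.9 in Ddx54KD, a difference of 0.45 ± 0.09 (adjusted p = 0.00346, 0.0318 with no replicate block) with no overlap. The call of Epha2, a receptor kinase, was lost without any library other than Ddx10KD replicate 1 (adjusted p of up to 0.176).

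Targets of the amino acid response were below the control in both knockdowns. The median of 50 targets of ATF4 and CHOP was -0.48 for Ddx10KD and -0.47 for Ddx54KD against EGFPKD, and -0.04 between them. Between the knockdowns 1 was called higher and 4 lower, 10% beside 10.6% of all genes. Atf4 itself was at 215, 239 and 221 CPM in EGFPKD, at 158, 166 and 141 in Ddx10KD, and at 175, 200 and 169 in Ddx54KD (-0.23 ± 0.04, adjusted p = 0.00113). Slc3a2, the shared chain of several amino acid transporters, went the other way, at 198, 203 and 213 CPM in Ddx10KD and 171, 187 and 181 in Ddx54KD (0.19 ± 0.03, adjusted p = 0.00136, 0.0493 with no replicate block). Cth, an enzyme of cysteine synthesis, differed by -0.32 ± 0.07 (adjusted p = 0.00481). With no replicate block Atf4 and Cth were not called (adjusted p = 0.146 and 0.276).

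Metallothionein genes were low in Ddx10KD. Metallothioneins are small proteins that bind zinc and copper, and the factor Mtf1 drives their genes through metal response elements when zinc is plentiful. Mt1 was at 83.2, 96.0 and 71.1 CPM in EGFPKD, at 34.1, 39.0 and 29.3 in Ddx10KD, and at 56.9, 70.7 and 60.6 in Ddx54KD, a difference of -0.88 ± 0.10 (adjusted p = 3.33e-05, 0.0359 with no replicate block). The 3 groups did not overlap. Its neighbour Mt2, picked out after its values were seen, was at 144, 186 and 145 CPM in EGFPKD, at 88.2, 111 and 65.8 in Ddx10KD, and at 114, 156 and 120 in Ddx54KD, a difference of -0.57 ± 0.08 (adjusted p = 0.000253, 0.224 with no replicate block). Replicate 2 was the highest of each group for both genes. No 50-base stretch of either gene stands in another annotated transcript.

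Stretches before the annotated starts of the pair are shown because the genes moved together. Each is 240 bases that end 10 bases before the RefSeq start (GRCm38.p6, forward strand, 5′ to 3′), from chr8:94178839-94179078 for Mt1 and from chr8:94172368-94172607 for Mt2. Capitals mark matches on either strand to TGCACNC or TGCGCNC, the core letters of the metal response element. By these letters 5478 of 27025 promoters (20.3%) hold at least 1 match in a window of this length.
Mt1: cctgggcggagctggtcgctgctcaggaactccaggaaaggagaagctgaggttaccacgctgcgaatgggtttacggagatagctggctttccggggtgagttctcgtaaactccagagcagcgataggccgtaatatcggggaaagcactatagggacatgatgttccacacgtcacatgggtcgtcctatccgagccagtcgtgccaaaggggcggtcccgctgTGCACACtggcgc
Mt2: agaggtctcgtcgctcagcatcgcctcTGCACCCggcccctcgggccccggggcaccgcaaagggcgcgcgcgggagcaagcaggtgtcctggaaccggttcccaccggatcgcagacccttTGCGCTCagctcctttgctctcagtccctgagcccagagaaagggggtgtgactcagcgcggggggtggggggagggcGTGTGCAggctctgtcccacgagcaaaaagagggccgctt
There is 1 match in the Mt1 window and 3 in the Mt2 window, a description of letters that says nothing of binding in these cells. Bases outside these windows, those after the annotated starts among them, were not searched. The counts therefore do not compare the full sets of metal response elements of the genes.

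Of 31 glycolysis and hypoxia genes, 6 were called lower in Ddx10KD and 0 higher, beside 5.30% called lower over all genes. The median was -0.15, and 30 of the 31 values were below 0. There were 2 called with no replicate block, and the counts were 3 without Ddx10KD replicate 2 or 3, 4 without Ddx54KD replicate 2 2 without Ddx54KD replicate 3 and 6 without replicate 1 of either group. Hk1, a hexokinase that traps glucose in the cell, was at 63.2, 62.5 and 64.4 CPM in Ddx10KD and at 73.1, 79.0 and 79.4 in Ddx54KD, with 69.9, 73.5 and 66.6 in EGFPKD (-0.28 ± 0.05, adjusted p = 0.0018, 0.0384 with no replicate block). Gpi1, the next enzyme of glycolysis, differed by -0.22 ± 0.04 (adjusted p = 0.00255, 0.101 with no replicate block). Ndrg1, a gene induced by low oxygen, differed by -0.47 ± 0.10 (adjusted p = 0.00605), a call lost without Ddx54KD replicate 3 (0.0549).

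Of 70 nuclear-encoded respiratory chain subunits 5 were called lower and 1 higher, and of 77 mitochondrial ribosomal proteins 6 were called lower and 1 higher, shares of 8.57% and 9.09% beside 10.6% of all genes. The 5 lower calls of the respiratory chain fell to 2 without Ddx54KD replicate 2 and to 2 with no replicate block. The 6 of the mitochondrial ribosomal proteins fell to 1 without replicate 2 of either group, 2 without Ddx10KD replicate 3 and 0 with no replicate block. Uqcrh, a hinge protein of complex III, was at 57.4, 57.9 and 55.2 CPM in Ddx10KD and at 73.3, 76.8 and 68.1 in Ddx54KD, with 79.7, 80.5 and 79.7 in EGFPKD (-0.35 ± 0.05, adjusted p = 0.000499, 0.0318 with no replicate block). Sdhd, an anchor of complex II, was at 65.9, 64.1 and 64.7 CPM in Ddx10KD and at 80.6, 78.8 and 72.0 in Ddx54KD, with 91.2, 91.3 and 92.5 in EGFPKD (-0.25 ± 0.04, adjusted p = 0.0016, 0.0227 with no replicate block). For Sdhd the groups stood apart in the order control, Ddx54KD, Ddx10KD. Sterol and fatty acid synthesis genes were below the control in both knockdowns (medians -0.26 and -0.26). Between the knockdowns 2 of 31 were called, 6.45% beside 10.6% of all genes.

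Cell cycle genes showed small differences. Of 31 genes of G2 and mitosis 9 were called lower and 1 higher, beside 5.30% called lower over all genes, with a median of -0.07, but 0 of the lower ones were called with no replicate block or without Ddx10KD replicate 3, and 1 to 3 without any other of the 6 libraries. Kif23, a motor of cell division, differed by -0.23 ± 0.05 (adjusted p = 0.0106), and the call was lost without Ddx10KD replicate 2 or 3 or Ddx54KD replicate 3 (up to 0.0770). Of 42 genes of S phase and replication 2 were called each way, 9.52% in all beside 10.6% of all genes. E2f1, a transcription factor that starts S phase, was at 47.3, 54.7 and 50.7 CPM in Ddx10KD and at 39.0, 44.4 and 40.2 in Ddx54KD, with 47.7, 49.7 and 49.2 in EGFPKD (0.31 ± 0.05, adjusted p = 0.000756, 0.0659 with no replicate block).

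Chaperones of the endoplasmic reticulum were called lower for 5 of 20 genes and higher for 1, beside 5.30% called lower over all genes, with 2 to 4 called lower when 1 library was left out. Hspa5, the main chaperone of that compartment, was at 438, 421 and 383 CPM in Ddx10KD and at 538, 503 and 434 in Ddx54KD (-0.24 ± 0.04, adjusted p = 0.00111), and Calr, which binds calcium and folding glycoproteins, differed by -0.20 ± 0.04 (adjusted p = 0.00184). Replicate 3 was the lowest of both knockdown groups for Hspa5, and neither gene was called with no replicate block (0.208 and 0.312). Of 18 cytosolic chaperones 2 were called each way, beside 5.28% and 5.30% over all genes. Hsph1, a partner of Hsp70, was at 228, 213 and 190 CPM in Ddx10KD and at 215, 177 and 145 in Ddx54KD, overlapping groups with a difference of 0.25 ± 0.05 (adjusted p = 0.0041, 0.404 with no replicate block). Among the imprinted and DNA methylation genes 6 of 31 were called higher and 5 lower, beside 5.28% and 5.30% over all genes. With 1 library left out 3 to 4 were called higher and 2 to 5 lower, with 3 higher without replicate 2 of either group and 2 lower without Ddx10KD replicate 2 or 3, and no member was called by edgeR with no replicate block. Peg10, an imprinted gene derived from a retrotransposon, was at 541, 500 and 553 CPM in EGFPKD, at 668, 699 and 789 in Ddx10KD, and at 504, 509 and 587 in Ddx54KD (0.43 ± 0.08, adjusted p = 0.00252, 0.0792 with no replicate block). Kcnq1ot1, an imprinted noncoding RNA, was at 966, 1022 and 605 CPM in Ddx10KD and at 1102, 1159 and 772 in Ddx54KD. Replicate 3 was low in each group including the control (570), and the difference of -0.24 ± 0.04 was called with the block (adjusted p = 0.000871) but not with no replicate block (0.740).

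Other genes were named for the size of their difference at a mean of at least 5 TPM. Raet1a and Raet1c, which encode ligands of the natural killer cell receptor NKG2D, were higher in Ddx10KD by 1.05 ± 0.15 and 1.09 ± 0.16 (adjusted p = 0.000197 and 0.000272). Raet1a was at 11.3, 12.3 and 12.4 CPM in EGFPKD, at 26.2, 30.0 and 25.1 in Ddx10KD, and at 15.4, 10.8 and 13.1 in Ddx54KD, so only Ddx10KD stood away from the control. The Raet1 genes are close relatives, and how reads were split between them is uncertain. Dpp4, a surface protease, differed by 0.78 ± 0.10 (adjusted p = 0.000154), with 21.1, 25.1 and 22.5 CPM in Ddx10KD, 12.2, 14.0 and 13.7 in Ddx54KD and 10.2, 11.5 and 12 in EGFPKD.

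Cd109, a membrane protein that binds transforming growth factor beta, was at 7.93, 6.72 and 8.68 CPM in EGFPKD, at 45, 49.7 and 71.5 in Ddx10KD, and at 26.7, 28.6 and 39.1 in Ddx54KD (0.81 ± 0.17, adjusted p = 0.00436, 0.138 with no replicate block). Serinc5, a membrane protein known for restricting retroviruses, had the same order, with 19.1, 17.0 and 19.1 CPM in EGFPKD, 56.2, 54.3 and 82.9 in Ddx10KD, and 36.6, 34.7 and 49.9 in Ddx54KD (0.67 ± 0.08, adjusted p = 6.16e-05, 0.0550 with no replicate block). In both genes replicate 3 was the highest of each knockdown group, and both knockdown groups were above the control. Dll3, an inhibitory Notch ligand, differed by 0.71 ± 0.10 (adjusted p = 0.000186), C1galt1, which extends O-linked sugars, by 0.70 ± 0.11 (adjusted p = 0.000509), and Ccdc112 by 0.68 ± 0.08 (adjusted p = 4.91e-05). Insm1, a zinc finger factor of neuroendocrine cells, was at 6.19, 7.6 and 11.0 CPM in Ddx10KD and at 3.81, 4.01 and 3.87 in Ddx54KD. Its difference of 1.07 ± 0.26 (adjusted p = 0.0116) was not called without Ddx10KD replicate 2 or 3 or without Ddx54KD replicate 1 or 3 (up to 0.109).

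Neat1 (chr19:5824708-5845478, reverse strand), the noncoding RNA that forms nuclear paraspeckles, was at 24.2, 20 and 19.6 CPM in EGFPKD, at 27.7, 20.5 and 28.7 in Ddx10KD, and at 49.4, 47.2 and 57.4 in Ddx54KD. Its difference was -1.01 ± 0.10 (adjusted p = 9.76e-06, 0.00311 with no replicate block). Ddx54KD stood above both other groups, which overlapped. Malat1, the neighbouring nuclear noncoding RNA, differed by -0.11 ± 0.07 and was not called (adjusted p = 0.354). Both are read here after capture of poly(A) tails, and values are per gene. Which transcript forms the reads came from, and so whether the form in paraspeckles differed, was not examined.

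Gprc5a, an orphan receptor induced by retinoic acid, was at 7.89, 8.55 and 7.62 CPM in EGFPKD, at 5.65, 5.50 and 5.64 in Ddx10KD, and at 10.2, 10.4 and 9.66 in Ddx54KD. The groups stood apart on either side of the control, and the difference was -0.85 ± 0.09 (adjusted p = 1.05e-05, 0.000279 with no replicate block). Tead4, a transcription factor that acts with Yap and is needed for trophectoderm, was at 16.3, 19.7 and 18.0 CPM in EGFPKD, at 10.2, 9.96 and 9.21 in Ddx10KD, and at 16.4, 17.9 and 16.4 in Ddx54KD. Here only Ddx10KD stood away from the control (-0.79 ± 0.08, adjusted p = 1.05e-05, 0.00246 with no replicate block). Fabp3, a fatty acid carrier whose exons overlap Zcchc17 on the other strand, differed by -0.71 ± 0.10 (adjusted p = 0.000197, 0.130 with no replicate block). Cd74, the invariant chain of antigen presentation, differed by -0.86 ± 0.17 at levels of 1.44 to 2.10 CPM in Ddx10KD and 2.64 to 3.32 in Ddx54KD (adjusted p = 0.00287).

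In the marker lists of other lineages, read beside 10.6% called over all genes, the called genes were 1 of 19 endoderm genes (Sparc, -0.36 ± 0.07, adjusted p = 0.00216, picked out after its values were seen), 1 of 12 trophoblast genes (Peg10, above) and 2 of 10 fibroblast markers, of which 1 was called higher and lost its call without any 1 of the 6 libraries. Of these markers Vim, an intermediate filament protein that stem cells also make, was at 167, 186 and 173 CPM in Ddx10KD and at 223, 249 and 231 in Ddx54KD, with 253, 274 and 274 in EGFPKD (-0.42 ± 0.05, adjusted p = 3.55e-05, 0.00462 with no replicate block). The summed level of the fibroblast markers was 1592 to 1798 CPM in Ddx10KD and 1571 to 1715 in Ddx54KD.

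**Figure D5:**
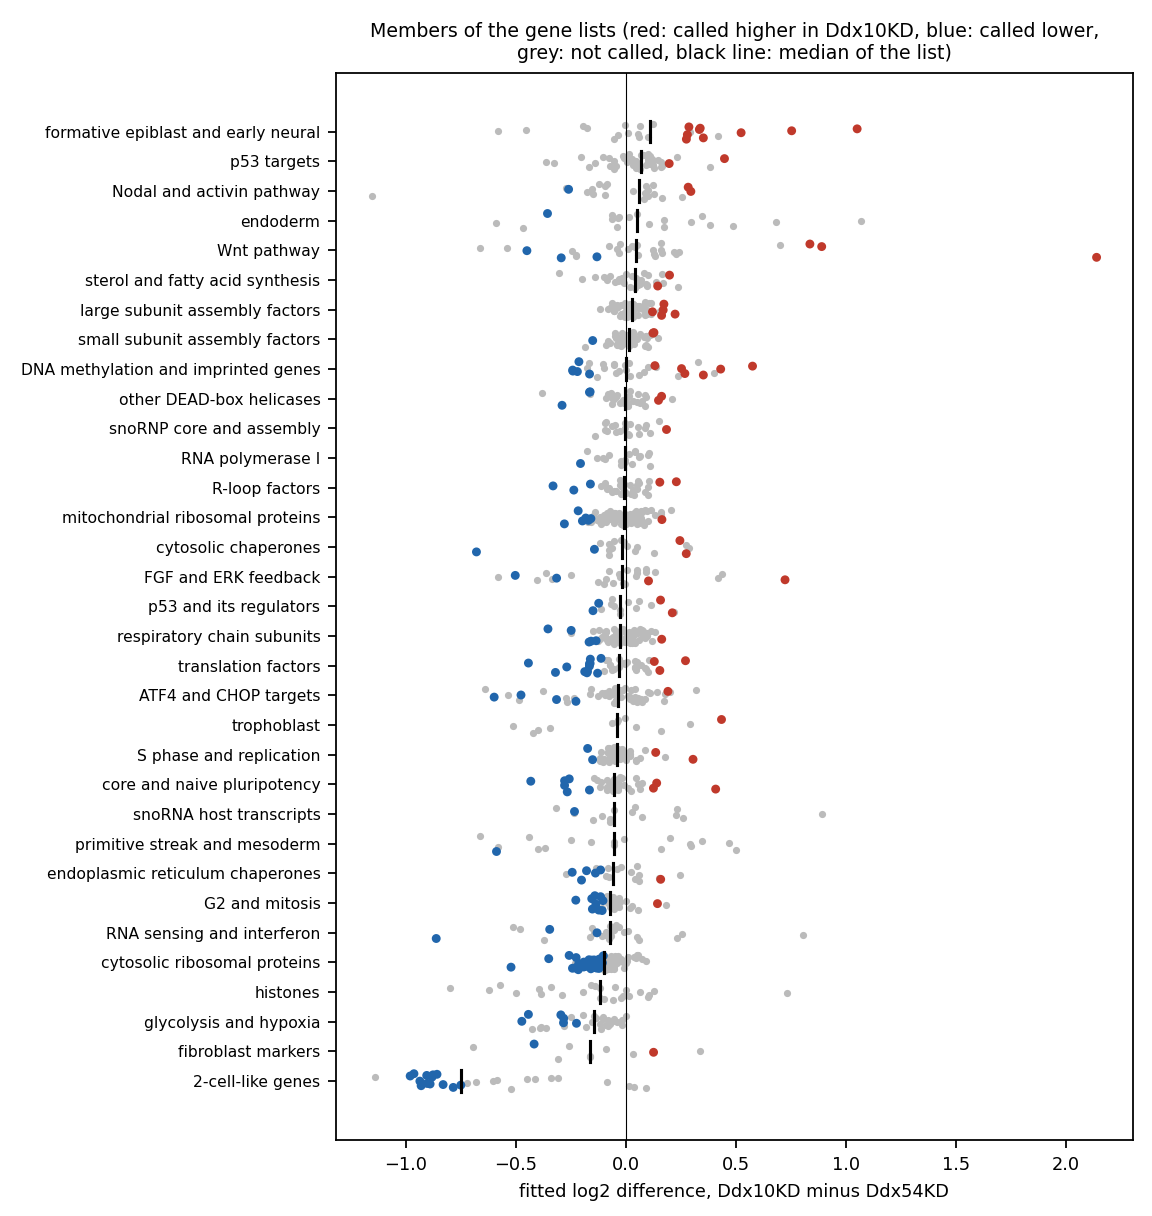
Fitted log2 difference, Ddx10KD minus Ddx54KD (horizontal), of every tested member of each gene list (rows, ordered by median); red and blue points are called higher and lower, grey points are not called, and black bars are list medians. The 2-cell-like list has the lowest median (-0.75), and the list of formative and early neural genes the highest (0.11).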

How the data were processed

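Poly(A) RNA of 15 libraries was measured, 3 biological replicates in each of 5 groups. The authors deposited expected counts from RSEM, an estimate of the reads from each gene before any scaling, beside TPM, per the file headers. Per the submitters' processing notes the build was mm10. Strandedness, annotation release and the version of RSEM were not given in the sources used here. The authors' effective lengths were used only to sort genes by length.

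Expected counts were rounded to whole numbers. Genes were filtered with filterByExpr, scaled by TMM and fitted over all 15 libraries with group and replicate number as terms in edgeR 4.0.16 (glmQLFit and glmQLFTest, R 4.3.3), with Benjamini-Hochberg adjustment over 14335 genes of 23845. Standard errors were taken as the log2 difference over the square root of F. Depth was 26866327 to 27708782 in the 6 libraries compared. The deposited TPM values served for markers and for the minimum of 5 in the naming rule. The fit was tested on simulated data.

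Replicate numbers come from the labels. After group means were removed, the 30 same-number pairs over all groups correlated at 0.106 to 0.335 and the 60 others at -0.249 to 0.0530. From the same-number values the numbers were taken to pair the libraries. The values of the others follow in part from the removal of the means and are not separate support.

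The rule for named genes took the targets, Pou5f1, Nanog, Sox2, Cdkn1a, Mdm2 and Trp53, up to 15 called genes each way of largest difference with a mean of at least 5 TPM and no overlap (predicted models left out), and up to 4 called members of smallest p from each list with at least 2. Further genes are given as chosen after their values were seen, as are Malat1, Mt2 and the full lists of called members. The members and lists were chosen with earlier results of these data known. Alternatives were other scaling, filters, DESeq2 1.42.0, limma-voom (limma 3.58.1), no block, the 6 libraries alone and leaving out libraries. The deposited tables of the authors' own comparisons were not used here. Promoter sequences were read from a RefSeq table.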

Additional observations from a re-analysis of the deposited data

How the results depend on the processing

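The counts below are of genes called in all, then higher and lower in Ddx10KD, then called at 2-fold or more, beside 1517, 757, 760 and 40. With no replicate block they were 205, 99, 106 and 12, and every one of those 205 genes was among the 1517. With the 6 libraries alone they were 3219, 1631, 1588 and 64 with a replicate block, and 120, 52, 68 and 10 with no replicate block. At an adjusted p under 0.01 they were 594, 267, 327 and 21. Leaving out each of the 6 libraries in turn gave 658 to 1045, 314 to 509, 344 to 536 and 17 to 54. The 2-fold count was 25 by DESeq2 and 6 with a minimum of 10 CPM. Settings chosen after seeing the data left out all libraries of a number: 418, 196 and 222 without replicate 1, 912, 419 and 493 without replicate 2, and 515, 228 and 287 without replicate 3, where the 2-fold count was 23. Without Ddx24KD replicate 2, outside the comparison, they were 2236, 1107, 1129 and 54. Mdm2, not called, ranged from -0.0224 to 0.116 with 1 library left out, and was below 0 without Ddx10KD replicate 2 (-0.0224) and without Ddx54KD replicate 1 (-0.0193). No gene of the 1517 that was tested changed sign under any alternative. Fewer samples enter the leave-one-out fits, and the cause of the other changes was not tested.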
